A study of Mus musculus with 3 samples.

Results

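The 27 genes described here encode enzymes of cholesterol synthesis, the regulators of their transcription, and proteins that move cholesterol inside cells or out of them. They were taken by symbol from the 32285 genes of the matrices, and all 27 were found. They comprise 18 synthesis enzymes, 4 regulators (Srebf1, Srebf2, Scap and Insig1), 3 proteins of transport inside cells (Stard4, Npc1 and Npc2) and 2 export pumps (Abca1 and Abcg1). Together they took 0.295% of the UMIs of the deposited spots. Most of these were UMIs of Npc2, which had 153549 in the analysed spots. Receptors that take up lipoproteins at the cell surface were not among them, apart from those in a list of other sterol genes given further on.

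Uteri of female mice mated with stud males were collected at pregnancy day 7.5, and frozen sections were placed on 10x Visium slides, whose barcoded spots each collect RNA from a patch of tissue that may contain several cells. All 3 libraries belong to 1 group, with no treatment and no control. The library of replicates 1 and 2 mixes sections of 2 biological replicates and counted as 1 sample. The comparisons are therefore between regions of the same sections, and n is the number of libraries.

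Cells make cholesterol from acetyl-CoA through mevalonate, squalene and lanosterol. When sterols in the endoplasmic reticulum run low, Scap escorts the transcription factor Srebf2 to the Golgi, where it is cut and released to switch on the genes of synthesis, while Insig1 holds the complex back. Cholesterol taken up in lipoproteins leaves lysosomes through Npc2 and Npc1, and the pumps Abca1 and Abcg1 pass surplus cholesterol to lipoproteins outside the cell. In the pregnant uterus cholesterol is needed for the membranes of dividing and enlarging cells and as the precursor of steroid hormones.

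Of 3978 deposited spots, 3939 had at least 1000 UMIs and were used. The library of replicates 1 and 2 held 16915926 UMIs with a median of 8038 per spot, replicate 3 held 27279702 with a median of 26543, and replicate 4 held 29953072 with a median of 28286. Libraries shared 676 to 825 spot barcodes pairwise, as slides printed with common barcodes can. Spots were clustered on other genes into 12 regions, numbered here and followed by their leading clustering genes. Counts were summed per library and region, into 35 sums of 336214 to 4896282 UMIs. Region 12 (Tnnc1, Crct1, Htra1) had 52 spots in the library of replicates 1 and 2, 1 spot in replicate 3 and 47 spots in replicate 4, so its values rest on 2 libraries. Levels are UMI counts scaled to a common library total (CPM) with factors from the trimmed mean of M-values (TMM). Levels of different genes are not set against each other.

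Markers of the labelled tissue were present. The decidual gene Prl8a2 averaged 215732 CPM in region 12, 94502 in region 6 (Fabp4, Sprr2h, Gm2694) and 18725 in region 3 (S100a8, Mrgprg, Bco1). The granzyme gene Gzma averaged 741 CPM in region 9 (Gzmd, Gzmf, Gzme) and 662 in region 7 (Gzmf, Gzmd, Gzme), the smooth muscle myosin Myh11 averaged 4752 CPM in region 11 (Fbxl22, Mylk, Asb2), and the trophoblast hormone Prl3d1 averaged 1508 CPM in region 10 (Prl7a1, Plet1, Pfpl). Region 10 also held Prl8a2, which took 4.408% of UMIs there in the library of replicates 1 and 2, beside 2.837% in region 3. In replicates 3 and 4 the shares in region 10 were 0.7887% and 1.114%, each below that of region 3. Of the gland markers, Prss29 reached 3408 CPM in region 8 (Mt4, Mfap4, C3), whereas Cxcl15 was at 0 in every other region and at 0.4 CPM there. The remaining regions were 1 (Stmn2, Ear2, Hmgn5), 2 (Psca, Mt4, Sfrp5), 4 (Col6a2, Mylk, Mfap4) and 5 (Nppa, Wfikkn2, Mfap4). A lower level in a region can mean fewer cells that express a gene or less RNA per cell, and these cannot be told apart in spots.

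The cholesterol genes differed widely among regions, and region 12 held the highest mean level for 15 of the 27, including 10 of the 18 enzymes. Region 9 was highest for 6 genes, of which 5 were enzymes, and region 3 for 2. The highest regional mean was 1.75 times the lowest for Srebf1 and 47.2 times for Msmo1, with a median of 8.13 and 12 genes above 10. Some of these ratios rest on few UMIs in the lowest region and are uncertain. In region 11, Msmo1 had 6, 0 and 6 UMIs in the libraries of replicates 1 and 2, 3 and 4. Hsd17b7, with a ratio of 21.6, had 0, 1 and 1 there. Neither the region of the highest level nor the number above 10 was tallied over all genes. Among regions 26 of 27 members differed at an adjusted p under 0.05 (96.3%), beside 91.1% of the 6477 genes tested, so that share is close to the background. The median range over regions was 3.04 on the log2 scale for the 27 members and 2.25 for all genes tested.

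Each region was then compared, in log2 units, with the average over the remaining regions by edgeR's quasi-likelihood test, with the library as a block. A gene was called when its Benjamini-Hochberg adjusted p was under 0.05 and its log2 difference was at least 1 in size. Differences are given ± SE of the fit, and levels ± SD over libraries. Since the other regions enter as a mean of logs, a region can be called higher while another region is higher still. Of 324 pairs of member and region, 43 were called higher (13.3%, beside 11.5% of pairs over all genes) and 42 lower (13.0%, beside 7.90%). Calls were made for 23 of the 27 members, and Mvd, Srebf1, Scap and Abcg1 had none. The share of all genes with a call in any region was not computed.

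**Figure D1:**
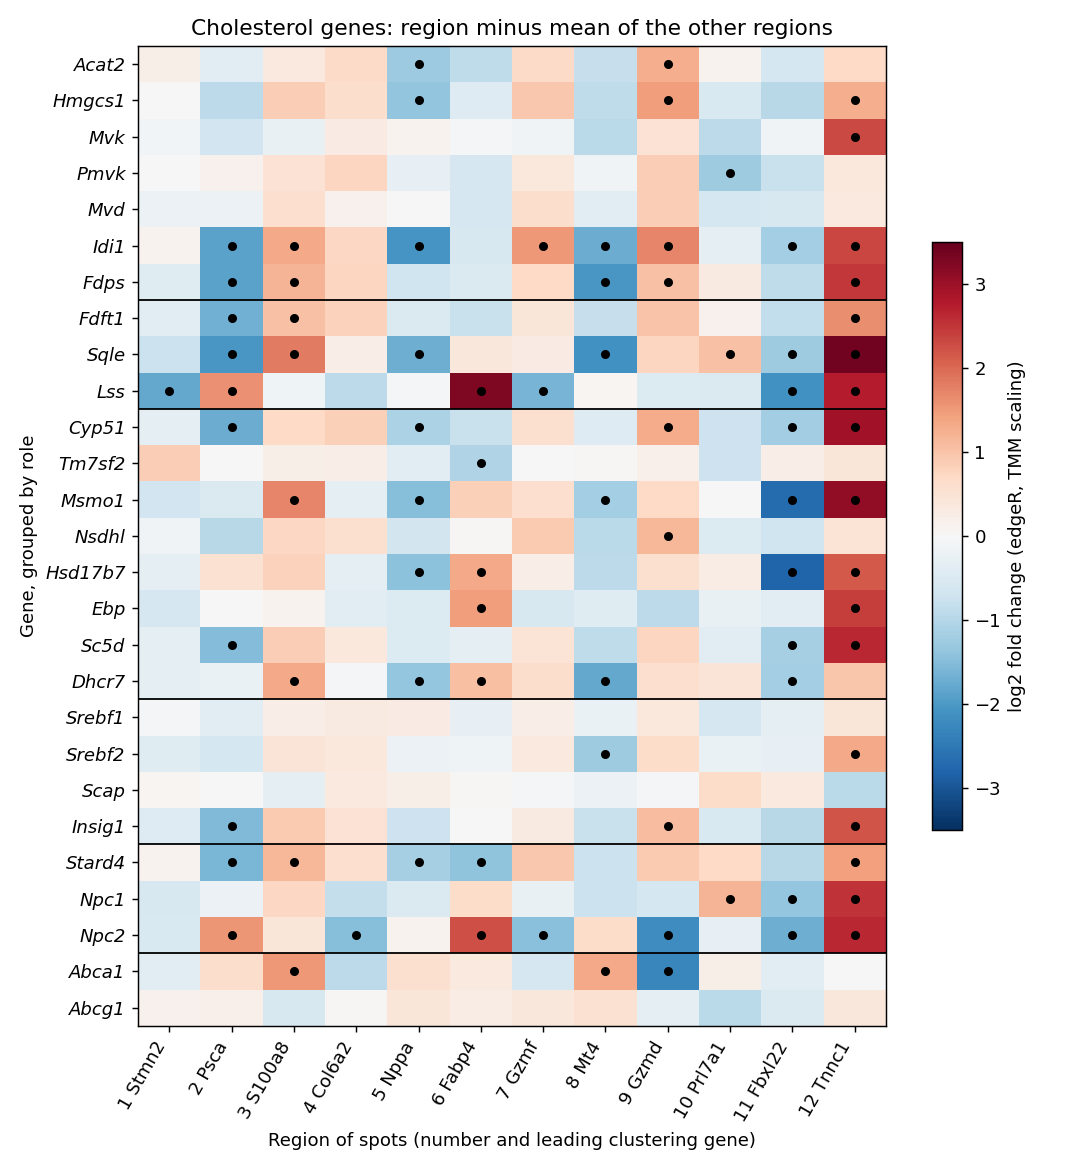
Regional difference of each of the 27 cholesterol genes (rows, grouped by role) in each of the 12 regions (columns), shown by colour as the log2 difference between that region and the mean of the other regions; dots mark calls. Region 12 carries 17 calls, all higher, and the rows of Lss and Npc2 are red in regions 2, 6 and 12.

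Among the 7 enzymes of the first stage, from acetyl-CoA to farnesyl diphosphate, the highest level lay in region 9 for Acat2, Hmgcs1, Pmvk and Mvd and in region 12 for Mvk, Idi1 and Fdps. Hmgcs1, which makes HMG-CoA, had 99.8, 106 and 129 CPM in region 9 in the libraries of replicates 1 and 2, 3 and 4, and 87.7 and 110 CPM in the 2 libraries of region 12. In region 5 it had 22.6, 15.4 and 15.5 CPM. The libraries of regions 9 and 12 overlap, and all of them lie above all of region 5. Hmgcs1 was higher in region 9 by 1.45 ± 0.12 on the log2 scale (adjusted p = 5.67e-13), with 112 ± 15.5 CPM in region 9 and a mean of 47.1 CPM over the other regions. It was higher in region 12 by 1.26 ± 0.20 (adjusted p = 1.75e-06) and lower in region 5 by a log2 difference of -1.37 ± 0.23 (adjusted p = 9.29e-06).

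Fdps, which makes farnesyl diphosphate, had 281 and 465 CPM in region 12, 87.7, 179 and 266 CPM in region 3, and 12.4, 17.6 and 34.0 CPM in region 8. Its log2 difference was 2.46 ± 0.12 in region 12 (adjusted p = 1.36e-19), 1.19 ± 0.09 in region 3 and 1.04 ± 0.09 in region 9. Region 8 was lower (-2.05 ± 0.15). The library of replicates 1 and 2 was lowest and replicate 4 highest for Fdps in all 11 regions that had sums in 3 libraries. The call in region 9 was lost without replicate 3. Idi1, the isomerase before Fdps, was called in 8 of 12 regions. It was higher in regions 3, 7, 9 and 12, with 50.1 and 99.9 CPM in region 12 and 44.4, 37.4 and 62.9 CPM in region 9. It was lower in regions 2, 5, 8 and 11, where its means lay between 4.18 and 7.83 CPM, and the call in region 11 was lost without replicate 4 and without the library of replicates 1 and 2.

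Mevalonate kinase, Mvk, had 85.2 and 127 CPM in region 12, and every sum of the other regions lay at or below 41.2 CPM. Its log2 difference in region 12 was 2.31 ± 0.17 (adjusted p = 1.89e-14), and no other region was called. Acat2, which joins acetyl-CoA units, was higher in region 9 (1.27 ± 0.17, adjusted p = 9.74e-08) and lower in region 5 (-1.27 ± 0.37, adjusted p = 0.00608). The call in region 5 was lost without replicate 3. Reads of Acat2 could be shared with its close paralog Acat3, so its level is uncertain. Pmvk, which phosphorylates mevalonate again, was lower in region 10 (-1.25 ± 0.20, adjusted p = 2.34e-06), with 15.7, 6.49 and 14.7 CPM there. With at least 5000 UMIs per spot, the best match of region 10 shared little with it (Jaccard index 0.343). The difference of Pmvk there was 0.0076 (adjusted p = 0.998). For Mvd, which makes isopentenyl diphosphate, the means lay between 31.1 ± 9.35 CPM in region 9 and 11.4 ± 5.42 CPM in region 10.

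Of the 3 enzymes of squalene and lanosterol, Fdft1 and Sqle were highest in region 12 and Lss in region 6. Sqle, the squalene epoxidase, had 253 and 321 CPM in region 12, 80.8, 70.3 and 145 CPM in region 3, and 7.44, 6.21 and 10.1 CPM in region 8. Neither library of region 12 overlaps any other region. Its log2 difference was 3.38 ± 0.15 in region 12 (adjusted p = 6.27e-21) and 1.82 ± 0.11 in region 3 (adjusted p = 1.37e-16). Sqle was also higher in region 10 (1.04 ± 0.15), a call lost without replicate 3 and without the library of replicates 1 and 2, and lower in regions 2, 5, 8 and 11. Squalene synthase, Fdft1, had 60.2 and 92.4 CPM in region 12 and was higher there (1.62 ± 0.21) and in region 3 (1.04 ± 0.12, not called without replicate 4). In region 2 it was lower (-1.69 ± 0.19), with a mean of 9.39 ± 2.38 CPM.

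Lss, which closes squalene epoxide into lanosterol, followed another order. It had 258, 222 and 226 CPM in region 6, 173 and 184 CPM in region 12, and 112, 72.6 and 68.2 CPM in region 2, against 7.51, 8.76 and 7.57 CPM in region 11. These 4 regions do not overlap each other. Region 6 was higher by 3.26 ± 0.11 (adjusted p = 1.64e-24), region 12 by 2.74 ± 0.17 and region 2 by 1.60 ± 0.12. Region 2 was called lower for the enzymes on either side of Lss, with log2 differences of -2.04 ± 0.19 for Sqle and -1.74 ± 0.19 for Cyp51. Lss was lower in regions 1 (-1.78 ± 0.18), 7 (-1.63 ± 0.18) and 11 (-2.13 ± 0.37).

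Of the 8 enzymes after lanosterol, 5 were highest in region 12. Msmo1, which removes methyl groups from the sterol ring, had 291 and 349 CPM in region 12, 106, 105 and 165 CPM in region 3, and 11.3, 0 and 9.09 CPM in region 11. Its log2 difference was 3.10 ± 0.14 in region 12 (adjusted p = 6.12e-20), 1.71 ± 0.11 in region 3 and -2.69 ± 0.34 in region 11. Cyp51, the lanosterol demethylase, had 120 and 249 CPM in region 12 and 57.3, 60.3 and 70.5 CPM in region 9, and both regions were higher, by 2.95 ± 0.16 and 1.31 ± 0.12. Both libraries of region 12 lay above every other sum of Cyp51.

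Ebp, the sterol isomerase, had 143 and 217 CPM in region 12 and 120, 74.2 and 114 CPM in region 6. Both were higher, by 2.42 ± 0.18 (adjusted p = 7.84e-14) and 1.45 ± 0.14 (adjusted p = 2.65e-11). Hsd17b7, a sterol ketone reductase, was also higher in these regions (2.14 ± 0.36 in region 12 and 1.31 ± 0.25 in region 6), and lower in regions 5 and 11. Its total was only 763 UMIs over all spots. The calls in regions 5 and 11 were lost without the library of replicates 1 and 2, and that in region 6 without replicate 3. The call in region 5 was also lost without replicate 4. Sc5d, the desaturase late in the pathway, had 52.6 and 88.1 CPM in region 12, above all other sums, and was higher there by 2.63 ± 0.23.

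Dhcr7, which catalyses the final reduction to cholesterol, was instead highest in region 3, with 61.4, 65.2 and 80.0 CPM, while region 12 had 52.6 and 53.7 CPM and region 8 had 7.44, 5.17 and 13.3 CPM. It was higher in region 3 (1.32 ± 0.12, adjusted p = 1.04e-11) and in region 6 (1.06 ± 0.14, not called without replicate 3). In region 12 the difference was 0.97 ± 0.24 (adjusted p = 0.00111), just short of the size a call needed. Nsdhl, a sterol dehydrogenase, was higher in region 9 (1.15 ± 0.17), with a mean of 21.1 ± 4.21 CPM there and 10.4 CPM over the other regions. Tm7sf2, a sterol reductase, had 548 UMIs in all. It was lower in region 6 (-1.05 ± 0.33, adjusted p = 0.00752, lost without replicate 4).

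**Figure D2:**
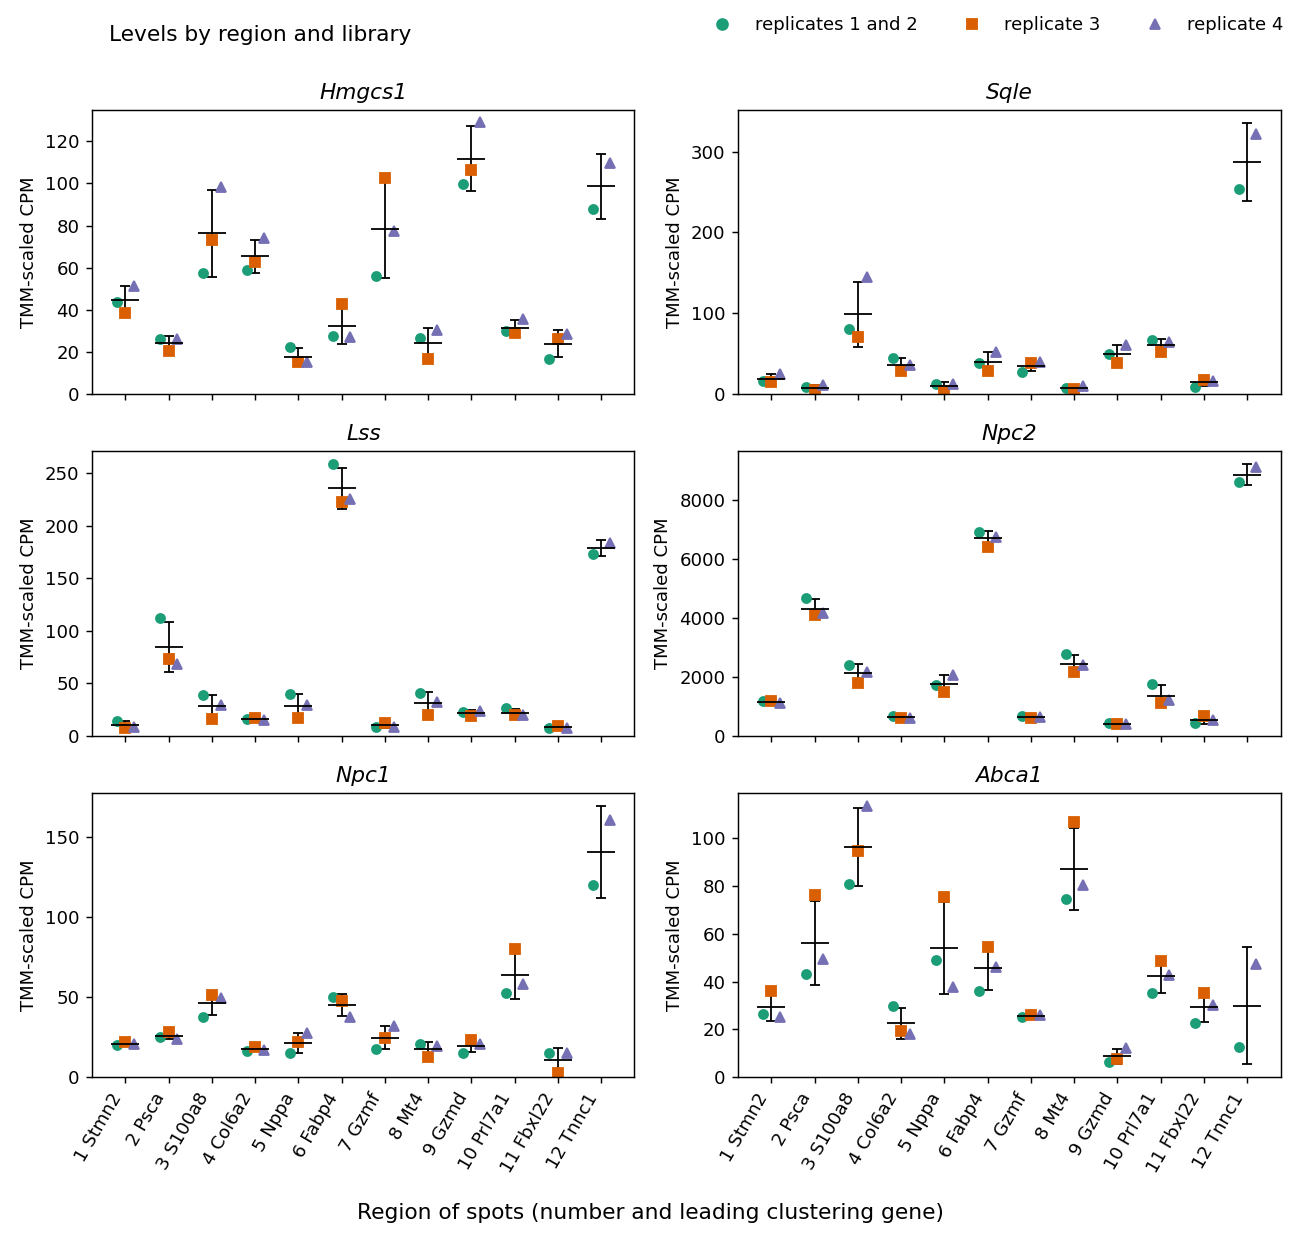
Levels of 6 cholesterol genes (vertical axes, TMM-scaled CPM from 0) in the 12 regions, with each symbol a library and bars the mean ± SD over 3 libraries, or 2 in region 12. Sqle, Npc1 and Npc2 are highest in region 12, Lss in region 6, Hmgcs1 in region 9 and Abca1 in region 3.

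Of the 4 regulators, Srebf2 and Insig1 had calls. Srebf2, the factor that drives the synthesis genes, had 77.7 and 136 CPM in region 12 and was higher there (1.34 ± 0.16, adjusted p = 4.95e-09). In region 8 it had 12.4, 26.9 and 26.6 CPM and was lower (-1.23 ± 0.16, adjusted p = 5.69e-08). Insig1, which retains the complex of Scap and Srebf2 and is itself a target of Srebf2, had 57.7 and 115 CPM in region 12, 29.0, 31.5 and 54.5 CPM in region 9, and 5.20, 4.90 and 11.1 CPM in region 2. It was higher in region 12 (2.20 ± 0.19) and region 9 (1.08 ± 0.14) and lower in region 2 (-1.55 ± 0.19). No region was called for Srebf1, which mainly drives fatty acid synthesis, with means between 28.2 ± 2.46 CPM in region 9 and 16.1 ± 1.39 CPM in region 10. Scap had means between 42.3 ± 15.7 CPM in region 10 and 17.4 ± 10.9 CPM in region 12.

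Within transport, Npc2 and Npc1, which hand cholesterol on in the lysosome, were both higher in region 12. Npc2 had 8601 and 9110 CPM in region 12, 6924, 6411 and 6758 CPM in region 6, and 4683, 4084 and 4163 CPM in region 2. In region 9 it had 419, 406 and 385 CPM. No 2 of these 4 regions overlap. The log2 differences were 2.65 ± 0.10 in region 12 (adjusted p = 1.64e-22), 2.24 ± 0.09 in region 6 (adjusted p = 1.84e-22), 1.55 ± 0.09 in region 2 and -2.17 ± 0.13 in region 9. Npc2 was also lower in regions 4, 7 and 11.

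Npc1 had 120 and 161 CPM in region 12, where it was higher by 2.53 ± 0.17 (adjusted p = 1.68e-15), and 52.5, 80.3 and 58.5 CPM in region 10, where it was higher as well (adjusted p = 3.01e-09). In regions 2 and 6, where Npc2 was higher, Npc1 was not called. Stard4, a carrier of free cholesterol between membranes, was higher in region 12 (1.44 ± 0.26, lost without replicate 4) and region 3 (1.17 ± 0.14). It was lower in regions 2, 5 and 6, with 4.75, 5.53 and 5.89 CPM in region 6. The call in region 5 was lost without the library of replicates 1 and 2, and the difference in region 6 was 0.26 (adjusted p = 0.360) in the match from the other gene set.

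Of the export pumps, Abca1 had 80.8, 94.6 and 113 CPM in region 3 and 74.4, 107 and 80.2 CPM in region 8, which overlap, against 6.44, 7.53 and 12.2 CPM in region 9. Its log2 differences were 1.51 ± 0.12 in region 3 (adjusted p = 2.60e-13), 1.32 ± 0.15 in region 8 (adjusted p = 3.66e-09) and -2.30 ± 0.21 in region 9 (adjusted p = 2.45e-11). In region 12 the 2 libraries had 12.5 and 47.3 CPM, and no call was made. Abcg1 had 340 UMIs in all, and a difference among regions was not detectable at this depth (adjusted p = 0.301).

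Read by region, region 12 had 17 members higher and 0 lower, beside 15.3% of all genes higher and 13.6% lower. The median log2 difference of the 27 members there was 1.62, beside -0.15 over all genes. The 17 were Hmgcs1, Mvk, Idi1, Fdps, Fdft1, Sqle, Lss, Cyp51, Msmo1, Hsd17b7, Ebp, Sc5d, Srebf2, Insig1, Stard4, Npc1 and Npc2. A single hormone gene, Prl8a2, took 17.3% and 9.37% of the UMIs of the 2 sums of region 12, and their TMM factors were the lowest of all (0.613 and 0.630). Without scaling factors, which moved the median of all genes by -0.72 on the log2 scale, 13 members were higher and 1 lower there, beside 8.23% and 35.2% of all genes. Fdft1, Hmgcs1, Srebf2 and Stard4 then lost their calls. With at least 5000 UMIs per spot, the best match of region 12 (Jaccard index 0.344) had 13 members higher, beside 12.5%. Of the 6 macrophage markers, whose summed level was 880 to 1283 CPM in region 12, Mrc1 was at 0 and C1qa at 6.8 CPM, while Csf1r averaged 700 and Cd68 358 CPM. The 6 endothelial markers summed to 1218 to 1331 CPM in region 12, beside 1088 to 1340 in region 3. The part of these cell types in the member levels was not tested.

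Region 9 had 7 members higher (Acat2, Hmgcs1, Idi1, Fdps, Cyp51, Nsdhl and Insig1), beside 11.5% of all genes, and 2 lower (Npc2 and Abca1), beside 9.40%. The 7 natural killer cell markers summed to 2479 to 4620 CPM in region 9 and 1547 to 6675 CPM in region 7, and their part was not tested. In region 7 only Idi1 was called higher (1.53 ± 0.12), beside 8.20% of all genes, and Lss and Npc2 were called lower, beside 6.21%. Without scaling factors, which shifted the all-gene median by 0.35 in region 9 and 0.24 in region 7, 15 members were higher and 2 lower in region 9, beside 18.9% and 6.36% of all genes. In region 7, 4 were then higher and 2 lower, beside 11.3% and 4.68%. Against the pooled other spots, 4 members were higher in region 9, beside 6.18%.

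Region 3 had 8 members higher and 0 lower, beside 13.1% of all genes higher and 5.70% lower. They were Idi1, Fdps, Fdft1, Sqle, Msmo1, Dhcr7, Stard4 and Abca1. Region 6 had 5 higher (Lss, Hsd17b7, Ebp, Dhcr7 and Npc2), beside 10.5%, and 2 lower (Tm7sf2 and Stard4), beside 12.2%. Without scaling factors, which moved the median of all genes by -0.42, it had 3 higher and 6 lower, beside 5.79% and 20.7%, a share of lower calls close to the background. With at least 5000 UMIs per spot, the region that best matched region 3 shared little with it (Jaccard index 0.377), and 0 members were higher and 1 lower in it, beside 7.38% and 5.11%. Clustered on the other gene set, regions 6 and 12 matched 1 common region with 14 members higher, beside 13.9% of all genes. The split between them thus depends on the genes used for clustering. In a finer clustering on the same genes (resolution 1.0) they matched separate regions, with Jaccard indices of 0.52 for region 6 and 1.0 for region 12. Against the pooled other spots, 4 members were higher in region 3, beside 8.63%. Without replicate 3, 3 members were higher in region 6, beside 11.2%, which is the background.

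Low levels gathered in other regions. Region 11 had 10 members lower, beside 10.4% of all genes, region 5 had 9, beside 3.52%, region 2 had 8, beside 7.95%, and region 8 had 6, beside 2.45%. Both Lss and Npc2 were higher in region 2, beside 6.01% of all genes, and Abca1 was higher in region 8, beside 9.85%. No member was higher in regions 5 and 11, beside 14.2% and 15.2%. The 6 smooth muscle markers summed to 29240 CPM on average in region 11 and 13247 CPM in region 5, and their part was not tested. They summed to 9567 CPM in region 4, where 1 member was lower, and to 1941 CPM in region 2 and 1403 CPM in region 8. Spots of region 5 had medians of 3298, 8987 and 14184 UMIs, those of region 8 had 6849, 15480 and 25645, and those of region 11 had 6455, 12739 and 8808. All 9 lie below the library medians, and the part of depth was not tested. The medians of region 4, where 1 member was lower, also lie below them (6586, 18596.5 and 18420.5 UMIs). Those of region 2, where 8 were lower, were 10148, 25044 and 33368.5 UMIs. Among the calls in these regions, that of Cyp51 in region 5 was lost without replicate 3 or 4, and that of Sc5d in region 11 whichever library was left out. Without region 12 in the fit, 6 members were lower in region 11, beside 9.95%. With at least 5000 UMIs per spot, region 11 had no match that could be tested. Region 10 had 2 members higher and 1 lower, beside 14.1% and 13.2%, and its match with at least 5000 UMIs per spot (Jaccard index 0.343) had 9 higher, beside 13.7%. Regions 1 and 4 had 0 higher, beside 6.39% and 13.8%, and 1 lower each (Lss in region 1, Npc2 in region 4), beside 4.55% and 5.64%. Without scaling factors, 4 were higher in region 4, beside 18.7%.

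**Figure D3:**
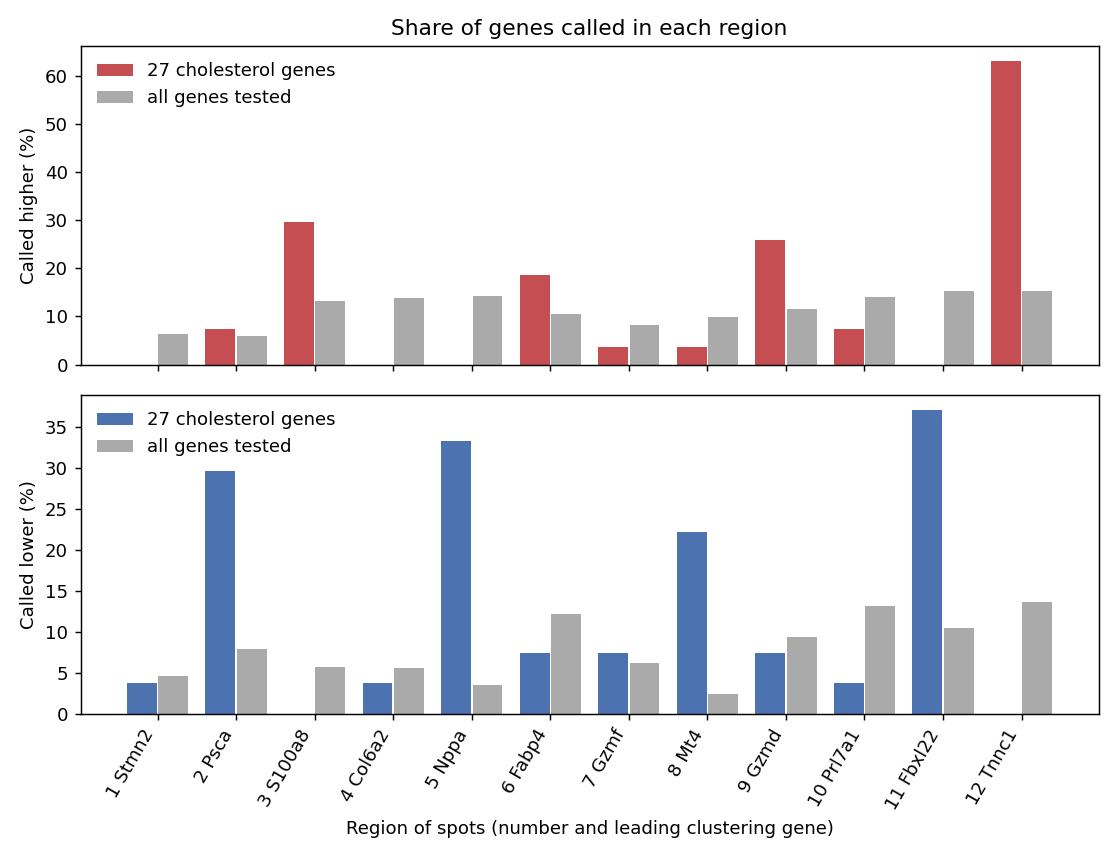
Percent of genes (axis) among the 27 cholesterol genes, and among all 6477 genes tested, that were called higher or lower in each region than the mean of the other regions. Region 12 has 17 members higher and 0 lower, and region 11 has 0 higher and 10 lower.

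Across the 35 sums, 8 of the 18 enzymes had a Pearson correlation over 0.8 with the mean z score of all 18, of which each is a part. For the 153 pairs of the 18 enzymes, the correlation of log2 CPM centred within libraries had a median of 0.53 and ran from -0.36 to 0.96. These values describe sums that share sections and depth, and no such value was computed over all genes. Idi1 (0.92), Hmgcs1 (0.91) and Cyp51 (0.91) followed the mean most closely. Among the enzymes Lss (0.21), Ebp (0.35) and Tm7sf2 (0.39) followed it least. Of members outside the mean, Insig1 reached 0.85, Srebf2 0.81 and Stard4 0.78, while Npc2 had 0.058, Abca1 -0.33 and Scap -0.45. Lss correlated with Npc2 at 0.87 over the same 35 sums, without centring.

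**Figure D4:**
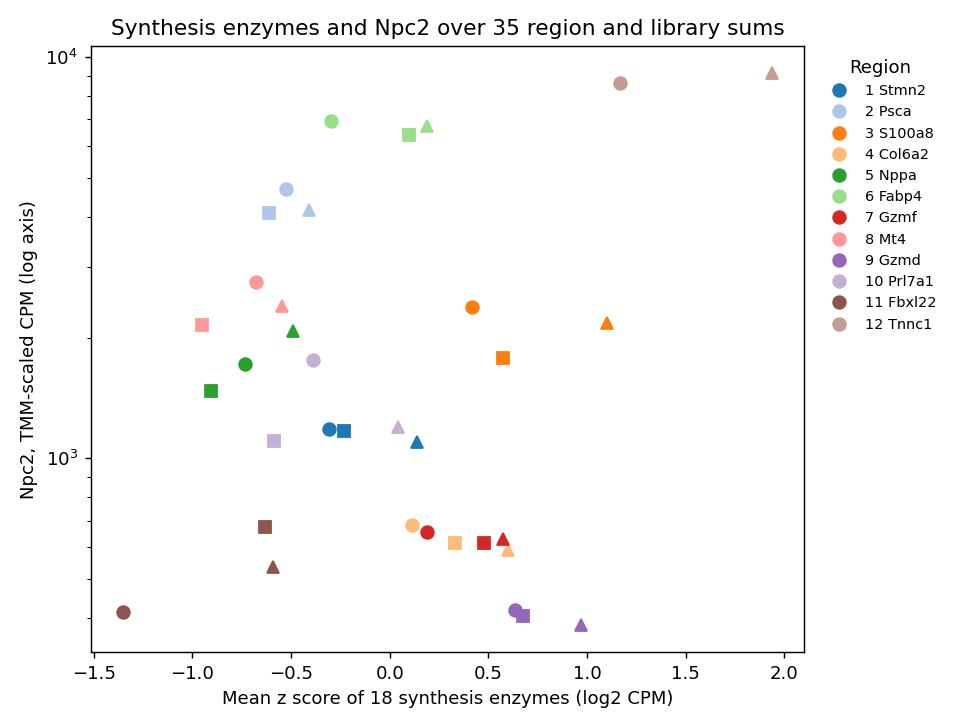
Mean z score of the 18 synthesis enzymes (horizontal, no unit) against the level of Npc2 (vertical, TMM-scaled CPM on a log axis), with each point 1 of the 35 sums, coloured by region and shaped by library (circles replicates 1 and 2, squares 3, triangles 4). Region 12 is high on both, region 9 is high for the enzymes and lowest for Npc2, and region 6 is high for Npc2.

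Of 4325 genes outside the lists with a mean log2 CPM of at least 3, those whose level over the 35 sums was most like the mean of the 18 enzymes were Ralgapb (r = 0.76), Klhdc2 (0.75), Medag (0.74), Erg28 (0.72), Eml4 (0.71), Tmem184b (0.70), Nt5c3 (0.70) and Atp2b1 (0.70). Erg28 is known from yeast as a scaffold of sterol enzymes.

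Neighbouring lipid pathways had their own regional orders. These lists were picked with results of the data known. Of 10 genes of fatty acid synthesis, 7 were higher and 0 lower in region 9, beside 11.5% and 9.40% of all genes, with a median log2 difference of 1.13, beside 0.078 over all genes. In region 12, 1 was higher and 3 were lower, beside 15.3% and 13.6%. Scd1, which desaturates fatty acids, averaged 43.5 ± 14.4 CPM in region 4 (2.16 ± 0.18), 39.3 ± 10.2 CPM in region 9 (2.02 ± 0.19) and 1.33 ± 1.68 CPM in region 6 (-3.16 ± 0.45), and was also higher in regions 7 and 11 and lower in region 2. The desaturases Fads1 and Fads2 were both higher in region 9 (1.21 ± 0.10 and 1.70 ± 0.13) and lower in region 12 (-1.51 ± 0.26 and -1.50 ± 0.41). Both were also lower in region 10, while Fads2 was lower in region 2, higher in region 4 and highest in region 11, with a mean of 85.2 CPM (2.59 ± 0.18). Me1, which makes NADPH, was higher in region 12 (1.98 ± 0.17) and region 3 (1.74 ± 0.10).

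Of 22 other sterol genes 20 were tested, and 5 were higher and 3 lower in region 12, beside 15.3% and 13.6% of all genes. Insig2, a relative of Insig1, was higher in region 12 (1.41 ± 0.18) and lower in region 9 (-1.10 ± 0.15). The lipoprotein receptor Vldlr averaged 180 ± 7.12 CPM in region 3 (1.70 ± 0.10) and 151 ± 23.8 CPM in region 12 (1.46 ± 0.16), and 9.40 ± 5.32 CPM in region 9 (-3.12 ± 0.18). Cyp27a1, which oxidises the cholesterol side chain, was higher in regions 5, 8 and 11, where 9, 6 and 10 cholesterol members were lower. It was not called in region 2, where 8 members were lower, and it was lower in regions 6, 9 and 10. The endocytic receptor Lrp1 was higher in region 5 (1.11 ± 0.11).

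Of 8 genes of steroid synthesis from cholesterol 7 were tested, with 4 higher in region 3, 4 higher in region 7 and 4 lower in region 9, beside 13.1%, 8.20% and 9.40% of all genes. Cyp11a1, which cuts the side chain of cholesterol, averaged 1743 ± 122 CPM in region 6 (2.70 ± 0.14), 1189 ± 85.8 CPM in region 12 (2.10 ± 0.19) and 983 ± 168 CPM in region 3 (1.80 ± 0.15), with 22.9 ± 8.66 CPM in region 9 (-4.10 ± 0.28). Hsd3b6, which could share reads with its close paralogs, averaged 82.2 ± 55.7 CPM in region 3 (5.18 ± 0.18), and the progesterone-inactivating Akr1c18 averaged 66.0 ± 65.7 CPM there (4.51 ± 0.20), both with wide spread between libraries. Hsd17b1, which reduces estrone, was higher in regions 1, 2, 7 and 8 and lower in regions 6, 10 and 12.

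Promoter sequence was available for 21 of the 27 members, and not for Fdps, Fdft1, Sqle, Stard4, Npc1 and Abcg1. The motif TCACNCCAC, the core of a sterol regulatory element, was searched on both strands in the 250 bases before the annotated start. It occurred in 1 of 21 members, Hmgcs1, at 137 bases before the start, and in 1.23% of 27018 genes. The motif CCAAT, searched as CCAAT or its complement ATTGG and not overlapping the other motif by its letters, occurred in 18 of 21 members (85.7%), beside 37.5% of all genes and 40.0% of the tested genes with sequence. A match describes letters only. Variants of these letters were not searched, so the lack of a match does not show that an element is absent. Sequences of RefSeq (GRCm38.p6) are shown for members that stood for the different regional patterns, chosen after their values were seen. Hmgcs1 was highest in region 9, Cyp51 in region 12, Lss in region 6, Ebp in regions 12 and 6, and Npc2 in regions 12, 6 and 2. Each runs 5′ to 3′ on the strand of its gene, ends before the annotated gene body, and has the searched motifs in capitals. Matches of CCAAT at 29 bases before the start in Cyp51, 6 bases in Npc2 and 237 bases in Hmgcs1 lie beyond the stretches shown. The places are chr13:119690151-119690350 (plus strand) for Hmgcs1, chr5:4104747-4104897 (minus) for Cyp51, chr10:76531405-76531587 (plus) for Lss, chrX:8193513-8193712 (minus) for Ebp and chr12:84773153-84773312 (minus) for Npc2.
Hmgcs1: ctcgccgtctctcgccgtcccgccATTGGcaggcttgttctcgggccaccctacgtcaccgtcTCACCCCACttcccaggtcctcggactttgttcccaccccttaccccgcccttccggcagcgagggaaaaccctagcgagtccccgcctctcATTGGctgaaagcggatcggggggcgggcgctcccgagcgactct
Cyp51: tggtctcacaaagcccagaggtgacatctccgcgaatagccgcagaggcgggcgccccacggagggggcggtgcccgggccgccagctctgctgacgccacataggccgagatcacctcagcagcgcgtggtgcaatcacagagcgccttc
Lss: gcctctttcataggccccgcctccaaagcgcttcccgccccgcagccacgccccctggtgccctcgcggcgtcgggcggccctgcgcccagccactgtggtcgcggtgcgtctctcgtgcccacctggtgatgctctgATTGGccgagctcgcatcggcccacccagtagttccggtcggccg
Ebp: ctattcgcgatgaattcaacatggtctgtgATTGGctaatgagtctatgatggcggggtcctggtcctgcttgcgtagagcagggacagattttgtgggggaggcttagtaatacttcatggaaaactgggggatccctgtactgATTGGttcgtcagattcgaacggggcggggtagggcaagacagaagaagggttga
Npc2: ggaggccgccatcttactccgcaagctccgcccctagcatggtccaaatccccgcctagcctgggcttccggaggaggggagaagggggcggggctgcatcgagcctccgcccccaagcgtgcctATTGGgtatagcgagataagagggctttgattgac

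Annotation limits some of these counts. In GENCODE (GRCm38), 13 of the 27 members overlap another gene, among them Fdft1 with Ctsb, Cyp51 with Akap9, Npc1 with Rmc1 and Srebf1 with Rai1 on the opposite strand, and Tm7sf2 with Vps51 on the same strand. The strand setting of the counting is not given in the sources used here, so reads of such pairs may not be told apart. Lss (chromosome 10, 76531588 to 76557138, plus strand) overlaps an antisense transcript, whereas Npc2 (chromosome 12, 84754562 to 84773152, minus strand), Sqle (chromosome 15, 59315077 to 59331192, plus strand) and Msmo1 (chromosome 8, 64718139 to 64733792, minus strand) overlap none.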

How the data were processed

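UMI counts per gene and spot are whole numbers that the authors deposited without normalization. The file headers name Space Ranger 1.2.2 as the software; Cell Ranger and the build mm10 come from the submitters' processing notes. The aligner's settings and the annotation version are not given in the sources. Members, lists and tests were chosen with earlier results of these data known. The text names every member and, of each neighbouring list, up to 4 genes with the smallest p over regions.

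Regions came from Leiden clustering (resolution 0.6, seed 0, 15 neighbours, 20 principal components) of spots with at least 1000 UMIs. It used the 1500 most variable of 16142 randomly drawn genes, without the 142 listed symbols, after centring within libraries. Doublets were not called, because spots contain several cells anyway. Sums of at least 20 spots entered edgeR 4.0.16 (filterByExpr, TMM, quasi-likelihood test, library as block), with 6477 genes from the remaining 16143 and the lists. P-values measure how regional differences vary between 3 libraries, pooled over regions, after the block removes the mean differences between libraries. Of these libraries, 1 mixes 2 replicates. The block pairs regions of the same library, which share sections. The fit was also run on simulated counts, with results not reported here. Alternatives were relative log expression scaling, DESeq2 1.42.0, no scaling, no filter, no block, no minimum fold, pooled other spots, the other gene set, resolution 1.0, 5000 UMIs per spot, leaving out each library and no region 12; no scaling and no region 12 were chosen after seeing the data. Other software was R 4.3.3, Python 3.11.15, scikit-learn 1.9.0 and leidenalg 0.10.2.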

Additional observations from a re-analysis of the deposited data

How the results depend on the processing

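Members that differed among regions numbered 26 under every alternative run except no replicate block, which gave 25. Of 43 calls higher and 42 lower, relative log expression scaling gave 41 and 43, DESeq2 41 and 44, no filter 44 and 44, no replicate block 43 and 42, 5000 UMIs per spot 38 and 36, the other gene set 59 and 36, pooled other spots 33 and 59, no scaling 52 and 49, and the fit without region 12 33 and 35. Regions 6 and 12 shared 1 match from the other gene set, so its 14 higher calls entered that count for both. Some matches with 5000 UMIs per spot were poor (Jaccard index 0.344 for region 12 and 0.377 for region 3). Without a minimum fold there were 101 higher and 99 lower, beside 17.7% to 29.8% and 13.1% to 24.6% of all genes by region. With pooled other spots, 2.02% to 12.8% of all genes were higher by region and 7.95% to 20.8% lower. In the main fit these shares were 6.01% to 15.3% and 2.45% to 13.6%. Leaving out 1 library gave 41 to 44 higher and 40 to 49 lower. Of the 85 calls, 14 were lost without at least 1 library, none changed sign there, and 51 kept direction and call under every alternative in which they could be tested. Calls of region 12 could not be tested without it, nor those of region 11 with 5000 UMIs per spot, and single calls were not compared at resolution 1.0. Pmvk in region 10 had a log2 difference of 0.0076 with 5000 UMIs per spot (adjusted p = 0.998), in a poor match (Jaccard index 0.343). Stard4 in region 6 had 0.26 with the other gene set (adjusted p = 0.360), in a match with a Jaccard index of 0.356. The cause of these changes was not tested. Abcg1, Tm7sf2, Hsd17b7 and Nsdhl had under 1000 UMIs each, which limits what could be seen. Region 12 had 1 spot in 1 library, below the minimum of 20, so its calls rest on 2 libraries.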

Other observations

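Replicate 4 was the highest of the 3 libraries in at least 8 of the 11 regions with 3 sums for Hmgcs1, Mvd, Idi1, Fdps, Fdft1, Cyp51, Tm7sf2, Msmo1, Sc5d and Insig1, a selection made after these values were seen. Fdps was highest in replicate 4 in 11 of 11 regions, and over all spots it had 60.5, 119 and 143 CPM in the libraries of replicates 1 and 2, 3 and 4. Replicate 3 was the highest in 7 of 11 regions for Abca1 and in 6 for Npc1 and Dhcr7. For Npc2 replicate 4 was the highest in 1 of 11 regions, and for Lss in 1. The libraries are single samples of 1 group, so these differences have no test, and no tally over all genes was made.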
